A study of Mus musculus with 6 samples.

Results

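The genes described here are 5 nuclear receptors for steroid hormones: Esr1 and Esr2, which encode oestrogen receptors alpha and beta, Pgr, the progesterone receptor, Nr3c1, the glucocorticoid receptor, and Nr3c2, the mineralocorticoid receptor. All probe sets annotated with 1 of these symbols were taken, whatever their signal, which gave 14 of the 45037 probe sets on the array that are not controls. A probe set is a group of short probes read together as 1 value for a transcript. Esr1 had 3 probe sets, Esr2 had 1, Pgr had 3, Nr3c1 had 6 and Nr3c2 had 1. In RefSeq (GRCm38.p6) Esr1 lies on chromosome 10, Esr2 on 12, Pgr on 9, Nr3c1 on 18 and Nr3c2 on 8.

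RNA came from whole testes of mice aged 12 weeks. Of the arrays, 3 were labelled SCARKO-jsd and 3 jsd, and the labels do not tie arrays to mice. Both groups carry the jsd (juvenile spermatogonial depletion) mutation of Utp14b, so that spermatogonia persist in the adult tubules beside the Sertoli cells while more advanced germ cells are scarce. SCARKO-jsd mice have in addition a knockout limited to the Sertoli cells, which nurse the germ line from within the tubules. The labels and notes do not say which promoter drove the recombination, and some sample labels spell this genotype SCARO-jsd or SCARCO-jsd. The comparison asks how the testis transcripts of the other steroid receptors stand when that knockout is added to the jsd background.

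Steroid receptors are transcription factors that wait for their ligand bound to heat shock proteins, then pair up on DNA and recruit coactivators or corepressors. In the rodent testis, oestrogen receptor alpha is known from Leydig and peritubular cells and oestrogen receptor beta from Sertoli and germ cells. The glucocorticoid receptor is found in several somatic cell types, Leydig cells among them, where it dampens androgen synthesis. The mineralocorticoid receptor is also known from Leydig cells, and the progesterone receptor is chiefly a gene of the female tract.

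None of the 14 probe sets passed the test between SCARKO-jsd and jsd testes at an adjusted p under 0.05 (limma with Benjamini-Hochberg adjustment over all probe sets, the test used throughout), and 1 of the 14 had an unadjusted p under 0.05. Of all probe sets, 0.28% were called and 10.3% had an unadjusted p under 0.05. The 14 differences (SCARKO-jsd minus jsd, log2 scale) had a median of -0.01, against 0.01 over all probe sets, with 6 of them above and 8 below 0. For 2 of the 14 every array of 1 group lay above every array of the other, as it did for 16.9% of all probe sets. The values were log2 expression after RMA, and 9 of the 14 probe sets had a mean above 5.69, the level that 40% of all probe sets fall below, called the dim limit here. A dim probe set says little about its gene, since most of its signal may be background. As a measure of scale, chosen after its value was seen, the androgen-dependent homeobox gene Rhox5 was at 5.80 ± 0.34 in SCARKO-jsd testes and 10.14 ± 0.36 in jsd testes (log2 expression, SD, n = 3 each).

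**Figure D1:**
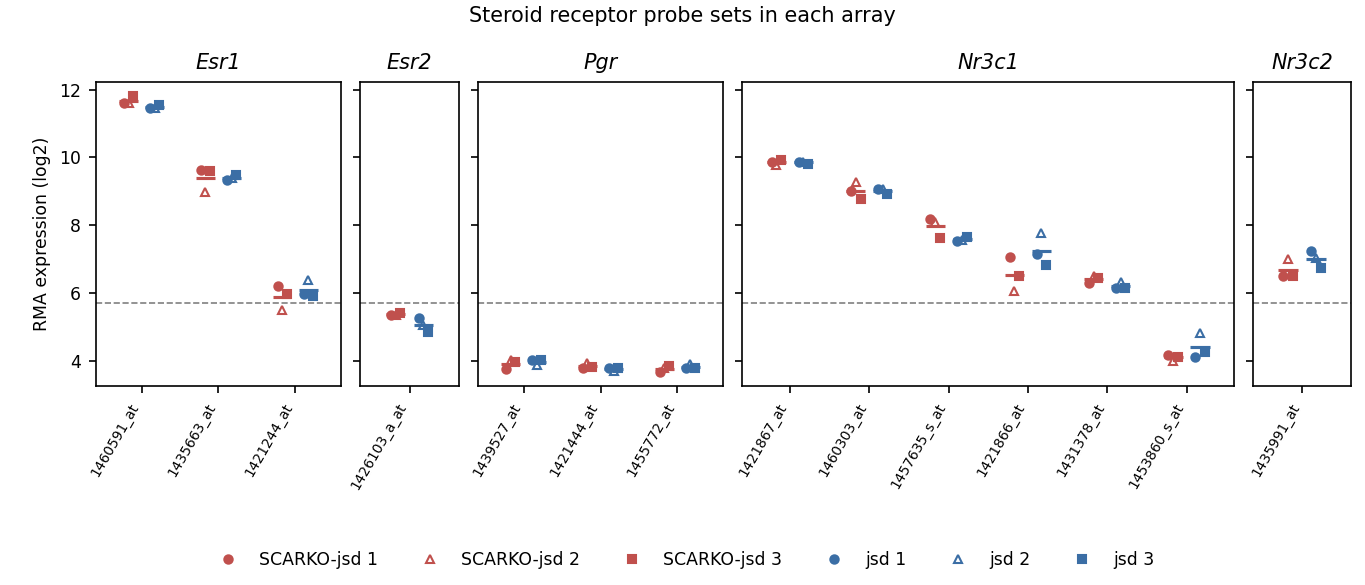
RMA expression (log2) of the 14 steroid receptor probe sets in each array, SCARKO-jsd (red, left) and jsd (blue, right), with the group mean as a bar, open triangles for the second replicate of each group and the dim limit of 5.69 as a dashed line. The Pgr and Esr2 probe sets lie below the dim limit in all 6 arrays, and the Esr1 probe set 1460591_at is near 11.5 in both groups.

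Esr1, the receptor through which oestrogen acts on Leydig cells and the efferent ducts, was far above the dim limit on a pair of its 3 probe sets in both groups. The brightest, 1460591_at, read 11.61, 11.60 and 11.82 in SCARKO-jsd 1, 2 and 3, against 11.45, 11.45 and 11.56 in jsd 1, 2 and 3. Every SCARKO-jsd array was above every jsd array, by a small margin. The difference was 0.19 ± 0.09 (log2, SE), with a 95% interval from 0.976-fold to 1.34-fold, and it did not pass (limma, Benjamini-Hochberg adjusted p = 0.563).

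The second Esr1 probe set, 1435663_at, read 9.64, 8.97 and 9.59 in SCARKO-jsd testes, against 9.33, 9.40 and 9.48 in jsd testes. SCARKO-jsd 1 and 3 were above all jsd arrays and SCARKO-jsd 2 was below them, so the groups overlapped. The difference was -0.01 ± 0.19 (limma, adjusted p = 0.994), and without SCARKO-jsd 2 it was 0.21 (adjusted p = 0.388). The third, 1421244_at, lay just above the dim limit and read 6.20, 5.48 and 5.96 in SCARKO-jsd testes, against 5.96, 6.37 and 5.90 in jsd testes. Here too SCARKO-jsd 2 was the lowest of all arrays. The difference was -0.20 ± 0.21 (limma, adjusted p = 0.804), and -0.0015 without that array. Averaged over its 3 probe sets, Esr1 was at 8.99 ± 0.26 in SCARKO-jsd testes and 8.99 ± 0.08 in jsd testes (SD, n = 3 each).

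Esr2, oestrogen receptor beta, was measured by 1 probe set, 1426103_a_at, whose suffix marks probes shared by transcript variants of 1 gene. It was dim, at 5.34, 5.36 and 5.42 in SCARKO-jsd testes, against 5.26, 5.06 and 4.84 in jsd testes. The SCARKO-jsd arrays were all higher and lay closer together than the jsd arrays. The difference was 0.32 ± 0.12 (log2, SE), a 95% interval from 1.02-fold to 1.53-fold, and this was the 1 probe set of the 14 with an unadjusted p under 0.05 (limma, adjusted p = 0.423). Markers of spermatogonia, a cell type known for Esr2 in rodents, moved in the same direction: the mean log2 expression of 7 such genes was 9.31, 9.55 and 9.61 in SCARKO-jsd testes, against 9.01, 8.98 and 8.75 in jsd testes. Of the 7 markers, 5 were higher at an unadjusted p under 0.05, where 13.2% of all genes had such a p in either direction (limma). Of the 7, 0 passed the adjusted threshold, while 7 of 7 lay above the dim limit. The other 2, Kit and Zbtb16, differed by -0.03 and -0.06, and their arrays overlapped. Markers of Sertoli cells, also known for Esr2, had a median difference of -0.12, with Wt1, Inha and Amh at -0.48, 0.33 and 0.33. The part of either cell type in the Esr2 values was not tested. In RNA of a whole organ, a change in cell number and a change in RNA per cell cannot be told apart.

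Pgr, the progesterone receptor, was dim on each of its 3 probe sets. The first, 1439527_at, read 3.75, 4.01 and 3.95 in SCARKO-jsd testes, against 4.02, 3.87 and 4.02 in jsd testes. The probe set 1421444_at read 3.79, 3.93 and 3.81 in SCARKO-jsd testes, against 3.79, 3.70 and 3.80 in jsd testes. The groups overlapped on all 3 probe sets. The differences were -0.07, 0.08 and, for 1455772_at, -0.05 on the log2 scale (limma, adjusted p = 0.865, 0.793 and 0.877). No Pgr reading in any array reached the dim limit, so how Pgr itself stands in either genotype was not resolved.

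Nr3c1, the glucocorticoid receptor, had 6 probe sets, of which 5 were above the dim limit. The brightest, 1421867_at, read 9.85, 9.78 and 9.93 in SCARKO-jsd testes, against 9.88, 9.87 and 9.82 in jsd testes. It had the tightest estimate of the 14: the difference was 0.00 ± 0.08 (log2, SE), with a 95% interval from 0.876-fold to 1.14-fold (limma, adjusted p = 0.999). The next, 1460303_at, read 9.00, 9.27 and 8.76 in SCARKO-jsd testes, against 9.07, 9.06 and 8.92 in jsd testes. SCARKO-jsd 2 was the highest and SCARKO-jsd 3 the lowest of all arrays there, and the difference was -0.01 ± 0.14 (limma, adjusted p = 0.994).

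The differences of the other Nr3c1 probe sets were larger in size and went in both directions. The probe set 1457635_s_at, of a kind whose probes can match more than 1 transcript, read 8.19, 8.10 and 7.61 in SCARKO-jsd testes, against 7.54, 7.56 and 7.66 in jsd testes. SCARKO-jsd 1 and 2 were above the jsd arrays and SCARKO-jsd 3 was among them, for a difference of 0.38 ± 0.16 (limma, adjusted p = 0.497). The probe set 1421866_at gave the largest difference of the 14 in size, and also the widest spread. It read 7.05, 6.04 and 6.50 in SCARKO-jsd testes, against 7.14, 7.76 and 6.82 in jsd testes. The difference of -0.71 ± 0.32 corresponds to a 95% interval from 0.357-fold to 1.05-fold (limma, adjusted p = 0.530), and it was -0.46 without SCARKO-jsd 2, the lowest array. The probe set 1431378_at was at 6.41 ± 0.12 in SCARKO-jsd testes and 6.20 ± 0.10 in jsd testes (SD, n = 3 each; limma, adjusted p = 0.533). The dim probe set 1453860_s_at was at 4.09 ± 0.09 in SCARKO-jsd testes and 4.39 ± 0.38 in jsd testes (limma, adjusted p = 0.672). With the 6 probe sets averaged, Nr3c1 was at 7.31 ± 0.10 in SCARKO-jsd testes and 7.38 ± 0.16 in jsd testes, a difference of -0.07 ± 0.11 (log2, SE).

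Nr3c2, the mineralocorticoid receptor, was measured by 1435991_at alone. It read 6.49, 7.01 and 6.49 in SCARKO-jsd testes, against 7.25, 7.03 and 6.73 in jsd testes. SCARKO-jsd 1 and 3 were below all jsd arrays, and SCARKO-jsd 2 was among them. The difference was -0.34 ± 0.19 (log2, SE; limma, adjusted p = 0.634). Without SCARKO-jsd 2 it was -0.51 ± 0.15, with an unadjusted p of 0.0115 and an adjusted p of 0.191 (limma). Without jsd 1, the highest array, it was -0.21 (limma, adjusted p = 0.912). In the fit without SCARKO-jsd 2, 13.7% of all probe sets had an unadjusted p under 0.05.

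**Figure D2:**
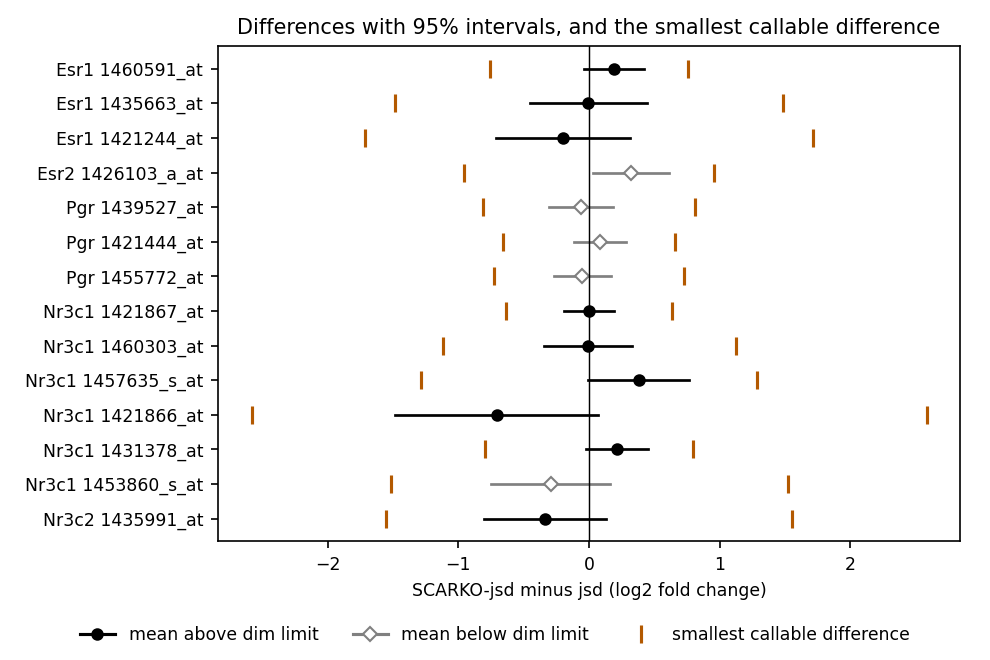
Differences in log2 expression, SCARKO-jsd minus jsd, for the 14 probe sets, with 95% intervals from limma as lines, and the smallest difference that would have been called as upright marks. Grey diamonds are probe sets with a mean below the dim limit. Each difference lies inside its own pair of marks, and the interval of Nr3c1 1421866_at is the widest.

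The limits of the test differ between the 14 probe sets. The smallest absolute moderated t among called probe sets was 8.00, so a difference had to be about that many times its SE to pass. For Nr3c1 1421867_at and Pgr 1421444_at a change of 1.56-fold and 1.58-fold would have passed, and for Esr1 1460591_at one of 1.69-fold. For Nr3c2 it would have taken 2.94-fold, and for Nr3c1 1421866_at 5.99-fold. The 95% interval lay within 1.5-fold in either direction for 8 of the 14, as it did for 74.4% of all probe sets. These 8 are the 3 of Pgr, 1460591_at and 1435663_at of Esr1, and 1421867_at, 1460303_at and 1431378_at of Nr3c1. For the remaining 6, among them the single probe sets of Esr2 and Nr3c2, a change beyond 1.5-fold lies inside the interval.

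Whether probe sets of 1 gene responded unequally was tested by setting each against the mean of the others of its gene, array by array. Of the 12 probe sets of Esr1, Pgr and Nr3c1, 0 passed by limma at an adjusted p under 0.05, where 0.019% of 21067 such contrasts on the array did, and 2 had an unadjusted p under 0.05, against 7.5% of all the contrasts. Both belong to Nr3c1, and each enters the mean that the other was set against, so they are not separate results. Read by themselves, 1457635_s_at and 1421866_at had unadjusted p of 0.054 and 0.068 (limma). The probe set 1457635_s_at stood 0.92, 0.98 and 0.46 above the gene's others in SCARKO-jsd testes, against 0.27, -0.00 and 0.47 in jsd testes (log2 difference). Its shift between the groups was 0.54 ± 0.19 (limma, adjusted p = 0.598). The probe set 1421866_at stood at -0.45, -1.49 and -0.87 from the others in SCARKO-jsd testes, against -0.21, 0.24 and -0.53 in jsd testes, a shift of -0.77 ± 0.31 (adjusted p = 0.641). For Esr1 the contrast of 1460591_at was 0.30 ± 0.19 and that of 1421244_at was -0.29 ± 0.18 (limma, adjusted p = 0.748 and 0.745). Without SCARKO-jsd 2 the contrast of Esr1 1460591_at was 0.13 and that of Nr3c1 1421866_at was -0.49 (limma, adjusted p = 0.804 and 0.504).

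**Figure D3:**
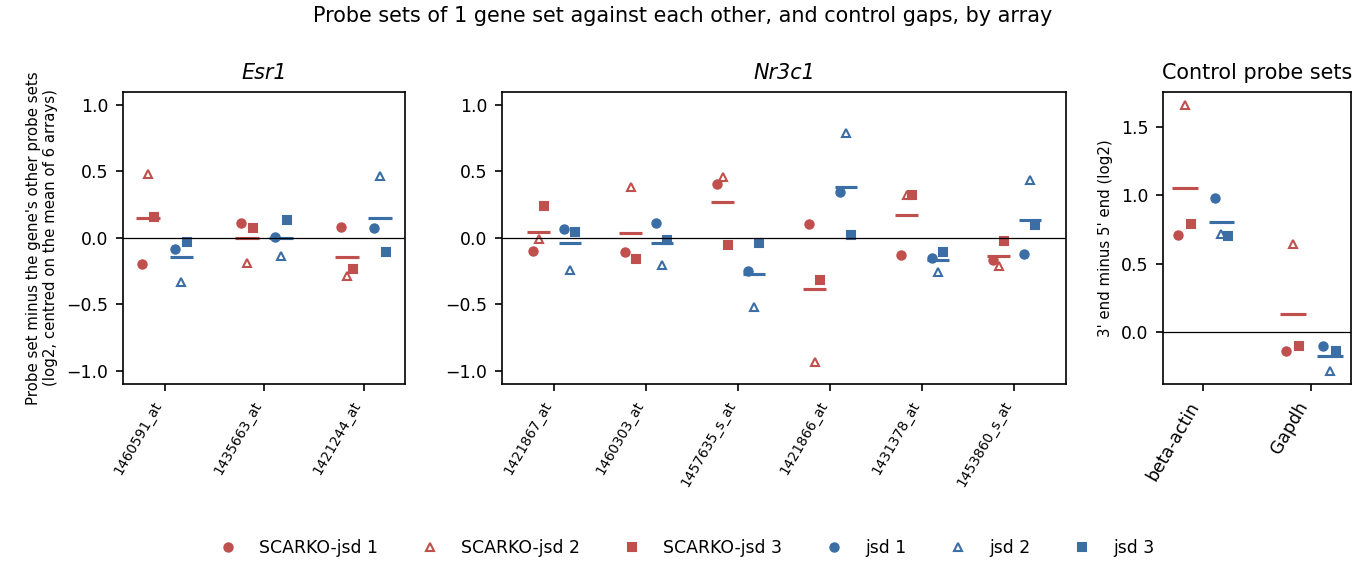
Left and middle, the log2 difference between each Esr1 or Nr3c1 probe set and the mean of that gene's other probe sets, centred on its mean over 6 arrays; right, the gap between probe sets at the 3' and 5' ends of control transcripts (log2). SCARKO-jsd is red and left, jsd blue and right, and triangles mark the second replicate of each group. SCARKO-jsd 2 has the largest control gaps, 1.66 for beta-actin and 0.64 for Gapdh, and is the lowest array at Nr3c1 1421866_at.

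Of the arrays, SCARKO-jsd 2 was the one least like the rest, correlating at 0.965 to 0.975 with them over all probe sets, where the other 5 reached up to 0.996 among themselves. For beta-actin its 3' control signal was 1.66 log2 units above its 5' signal, against 0.70 to 0.98 in the other 5 arrays, and for Gapdh by 0.64 against -0.29 to -0.10. Among the steroid receptors it was the lowest of the 6 arrays on 5 of the 14 probe sets (19.3% of all probe sets) and the highest on 3 (39.3%). The 5 are 1435663_at and 1421244_at of Esr1 and 1421867_at, 1421866_at and 1453860_s_at of Nr3c1. The part of RNA quality in these values was not tested. Without that array 0 of the 14 passed (limma, adjusted p of 0.191 or more), where 1.39% of all probe sets were called.

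Genes that work with steroid receptors were read on the brightest probe set of each gene. Of 120 genes in 9 lists, 106 had a probe set with 1 symbol, and 0 passed by limma at an adjusted p under 0.05, where 0.484% of all 18193 genes did. At an unadjusted p under 0.05 there were 21 of the 106, against 13.2% of all genes. Of the 106, 95 lay above the dim limit, against 12972 of all 18193 genes, so these shares come from genes of unlike brightness. The lists were also chosen with earlier results of these data known. The median difference of the 106 genes was 0.01, against 0.04 over all genes (log2).

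Among receptor relatives, 11 of 11 did not pass and 1 had an unadjusted p under 0.05, with a median of 0.05. That was Paqr6, a membrane protein of the family of progestin receptors, at 9.20 ± 0.06 in SCARKO-jsd testes and 8.76 ± 0.13 in jsd testes (SD, n = 3 each). Its 3 SCARKO-jsd arrays were all above the jsd arrays, the difference being 0.44 ± 0.10 (limma, adjusted p = 0.178). The family members Paqr7 and Paqr8 differed by 0.14 and -0.20 on their brightest probe sets (limma, adjusted p = 0.742 and 0.754). The other probe sets of Paqr8 gave -0.52, -0.23 and -0.44, with the groups not overlapping on the last. The mean of its 4 probe sets differed by -0.35 (limma, adjusted p = 0.326).

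The 12 chaperones measured, which hold the receptors ready for ligand, had a median difference of 0.11, and 3 had an unadjusted p under 0.05. Dnajb1, a partner of the heat shock protein Hspa8, was lower by 0.38 ± 0.13, with a second probe set at -0.40. Hspa4 was higher by 0.35 ± 0.12 on its brightest probe set, while its others gave -0.03, -0.34 and -0.06, and the mean of the 4 differed by -0.02. Bag1, which releases clients from heat shock proteins, was higher by 0.21 ± 0.07 (limma, adjusted p = 0.369, 0.386 and 0.390 for the 3 genes).

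Of 18 coactivators, which open chromatin at receptor sites, 0 passed and 5 had an unadjusted p under 0.05, with a median of 0.00. Ncoa2, a coactivator that binds the ligand-bound receptor directly, had the smallest p. Its brightest probe set, 1435233_at, read 10.95, 11.10 and 10.57 in SCARKO-jsd testes, against 11.55, 11.41 and 11.34 in jsd testes. The SCARKO-jsd arrays were all lower, as they were on 1435234_at and 1450458_at, and the 4 differences were -0.56, -1.26, -0.71 and -1.04 (limma, adjusted p = 0.254, 0.0820, 0.716 and 0.113). With the 4 probe sets averaged, Ncoa2 was at 8.40 ± 0.25 in SCARKO-jsd testes and 9.29 ± 0.09 in jsd testes (SD, n = 3 each), 1.86-fold lower, and passed by limma (adjusted p = 0.0175). In that setting 1.9% of 18193 genes were called. The call held without SCARKO-jsd 1 or 2 and ended without any of the other 4 arrays (limma, adjusted p up to 0.101). Ppargc1b, a coactivator of oxidative metabolism, was lower by 0.37 ± 0.10, and Carm1, an arginine methyltransferase, by 0.26 ± 0.08 (limma, adjusted p = 0.275 and 0.341).

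Of 10 corepressors 0 passed and 2 had an unadjusted p under 0.05, with a median of -0.18. Hdac3, the histone deacetylase of nuclear receptor corepressor complexes, was at 10.00 ± 0.09 in SCARKO-jsd testes and 10.37 ± 0.13 in jsd testes (SD, n = 3 each; limma, adjusted p = 0.274). Nr0b1, an orphan receptor that represses steroidogenic genes in Leydig and Sertoli cells, read 9.48, 10.16 and 9.62 in SCARKO-jsd testes, against 10.54, 10.38 and 10.13 in jsd testes. Only SCARKO-jsd 2 overlapped the jsd arrays, and the difference was -0.60 ± 0.20 (limma, adjusted p = 0.378). Without that array it was -0.80 and passed (limma, adjusted p = 0.0434), in a fit that called 1.39% of all probe sets. Over the fits with 1 array left out the Nr0b1 difference ran from -0.80 to -0.46 (limma, adjusted p up to 0.813). Tbl1x, of the same complexes as Hdac3, was lower by 0.19 ± 0.08 (adjusted p = 0.521).

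Among 12 genes for the making, breakdown or carriage of steroid ligands, 0 passed and 2 had an unadjusted p under 0.05. Their median was 0.04, and they are enzymes apart from the carrier protein Shbg. Hsd17b1, which reduces oestrone to oestradiol, was dim, at 5.07 ± 0.24 in SCARKO-jsd testes and 5.77 ± 0.41 in jsd testes (SD, n = 3 each; limma, adjusted p = 0.351). H6pd, which supplies cofactor for the activation of glucocorticoids, was higher by 0.25 ± 0.10 and Hsd17b3, which makes testosterone, by 0.25 ± 0.13 (limma, adjusted p = 0.462 and 0.586).

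**Figure D4:**
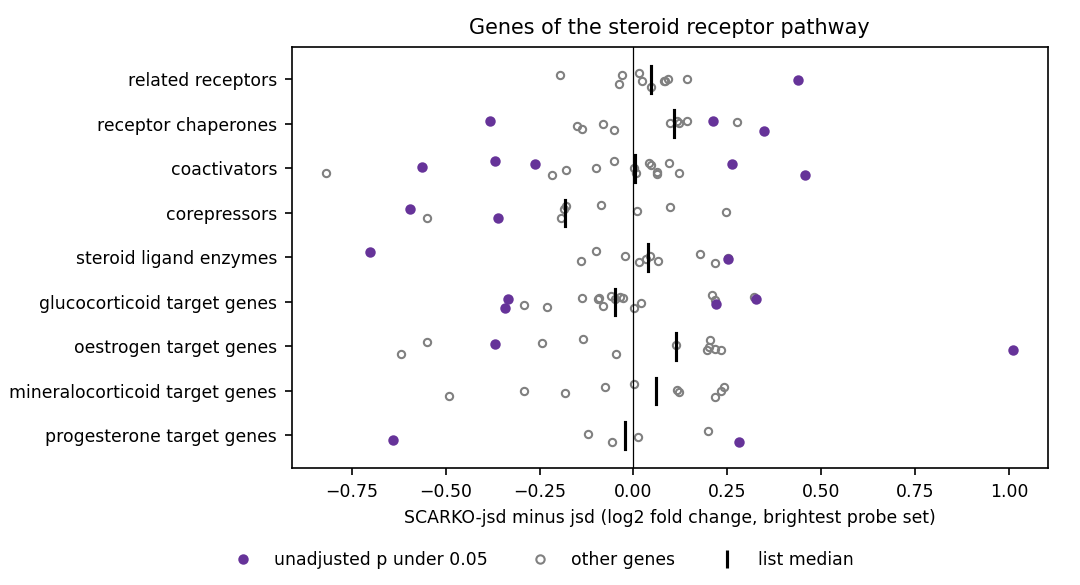
Log2 fold change, SCARKO-jsd minus jsd, of each gene (brightest probe set) in 9 lists of genes that work with or respond to steroid receptors, with the list median as an upright bar. Purple points have an unadjusted p under 0.05, and 0 of the 106 genes passed the adjusted threshold. Greb1 lies farthest to the right, at 1.01.

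Among genes of the oestrogen, glucocorticoid, mineralocorticoid and progesterone responses elsewhere, 0 of 13, 0 of 19, 0 of 10 and 0 of 6 passed (limma). Of these, 2, 4, 0 and 2 had an unadjusted p under 0.05. The lists do not give the direction in which each gene responds. The list medians were 0.11, -0.05, 0.06 and -0.02 in that order. The oestrogen list's median was 0.03 with the lowest 40% of probe sets left out and -0.05 with the lowest 60% left out, and the progesterone list's was -0.18 with either. For glucocorticoid targets, Nfkbia, an inhibitor of inflammatory signalling, was lower by 0.33 ± 0.09, Lcn2, a secreted iron-trafficking protein, was higher by 0.22 ± 0.07, and Mt2, a metallothionein, was lower by 0.34 ± 0.13 (limma, adjusted p = 0.284, 0.378 and 0.435). On the other 4 probe sets of Nfkbia the difference lay between -0.28 and -0.17, and the arrays of the groups overlapped. In the mineralocorticoid list, Nedd4l, a ubiquitin ligase of sodium channels, was higher by 0.23 on its brightest probe set. Over the mean of its 6 probe sets Nedd4l was at -0.02. The endothelin gene Edn1 was lower by 0.49 and the sodium channel subunit Scnn1b was higher by 0.24. On the brightest probe sets of Nedd4l, Edn1 and Scnn1b the adjusted p was 0.546, 0.608 and 0.655 (limma). For progesterone targets, Foxo1 was higher by 0.28 ± 0.08 on its brightest probe set, and the others gave 0.41, 0.34 and, where dim, -0.05. Fst, the activin-binding follistatin, was at 7.07 ± 0.17 in SCARKO-jsd testes and 7.71 ± 0.39 in jsd testes (SD, n = 3 each). The other Fst probe set differed by -0.68. On the brightest probe sets of Foxo1 and Fst the adjusted p was 0.299 and 0.346 (limma). Hand2 was dim.

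Greb1, which oestrogen induces through oestrogen receptor alpha in breast cells and which binds that receptor, had the largest difference of all the pathway genes. Its brightest probe set, 1439568_at, read 8.75, 8.56 and 8.29 in SCARKO-jsd testes, against 7.00, 7.74 and 7.83 in jsd testes. The probe set 1419593_at read 7.32, 7.85 and 6.63 in SCARKO-jsd testes, against 5.62, 6.21 and 6.17 in jsd testes. Every SCARKO-jsd array was above every jsd array on both, as on the dim 1445323_at, and the differences of the 4 probe sets were 1.01, 1.26, 0.17 and 0.76 (limma, adjusted p = 0.208, 0.235, 0.733 and 0.169). With the 4 averaged, Greb1 was at 6.83 ± 0.16 in SCARKO-jsd testes and 6.03 ± 0.26 in jsd testes (SD, n = 3 each), 1.74-fold higher, and passed by limma (adjusted p = 0.0364). In that setting 1.9% of 18193 genes were called. The Greb1 call held without SCARKO-jsd 2 and ended without any of the other 5 arrays (adjusted p up to 0.112). The mean of the 7 spermatogonial markers, given above with Esr2, was likewise higher in each SCARKO-jsd array, and their part in the Greb1 values was not tested. Rara, a retinoic acid receptor, was lower by 0.37 ± 0.10 and Igf1 by 0.24 ± 0.12 (limma, adjusted p = 0.273 and 0.572).

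**Figure D5:**
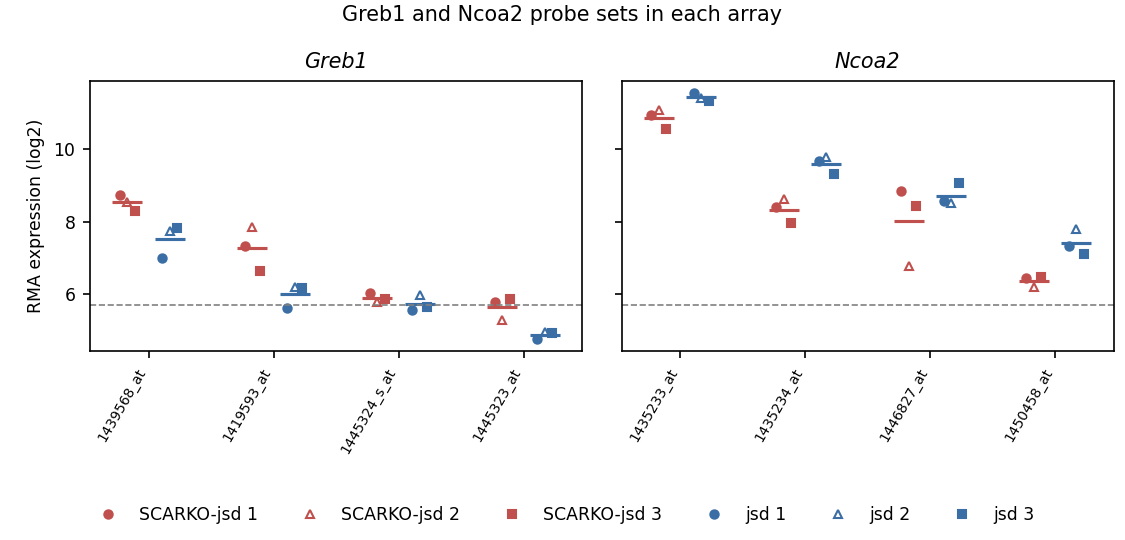
RMA expression (log2) of the 4 probe sets of Greb1 and the 4 of Ncoa2 in each array, SCARKO-jsd (red, left) and jsd (blue, right), with group means as bars and the dim limit as a dashed line. On 3 of the 4 probe sets of each gene the groups do not overlap, with Greb1 higher and Ncoa2 lower in SCARKO-jsd testes, and SCARKO-jsd 2 is far below the rest on Ncoa2 1446827_at.

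The tissue was checked on markers of its cell types. All measured markers of Sertoli cells (8), of peritubular myoid cells (6), of Leydig cells (5) and of spermatogonia (7) were above the dim limit, while 1 of 6 spermatid markers and 0 of 5 epididymal markers were. None of the Leydig or myoid markers had an unadjusted p under 0.05, and the list medians were -0.02 and -0.00. Sertoli markers had a median of -0.12, with 3 of 8 at an unadjusted p under 0.05 and 0 passing (limma): Wt1, Inha and Amh at -0.48, 0.33 and 0.33. Of 5 endothelial markers, all above the dim limit, Kdr and Vwf had an unadjusted p under 0.05, at -0.79 and 0.53, and of 5 macrophage markers Fcer1g did, at -0.33, with 0 passing in either list (limma). Among 3 red blood cell genes, Hba-a1 and Slc4a1 were dim. The third, Alas2, the enzyme that starts haem synthesis in erythroid cells, read 7.74, 7.60 and 7.86 in SCARKO-jsd testes, against 9.00, 8.85 and 8.96 in jsd testes, and was the 1 marker that passed, lower by 1.21 ± 0.10 (limma, adjusted p = 0.0162). That call held without SCARKO-jsd 2 and ended without any of the other 5 arrays (limma, adjusted p up to 0.151). The Alas2 difference ran from -1.27 to -1.14 in these fits. Without SCARKO-jsd 2, 627 of 45037 probe sets were called. Without SCARKO-jsd 1 or 3 there were 19 and 14, and without jsd 1, 2 or 3 there were 0, 3 and 25. The part of these cell types in the receptor values was not tested.

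The probe sets whose values over the 6 arrays were most like those of each receptor were listed as a description, taken from the named probe sets above the dim limit. The closest to Esr1 1460591_at were those of Srgap2, Zranb1 and Dpcd (Pearson r of 0.991, 0.987 and 0.985). The closest to Nr3c2 were Gspt2, Edem1 and Nrm (0.996, 0.994 and 0.994), and to Esr2 Lpin1, Fancc and Bet1l (0.992, 0.986 and 0.980). For Nr3c1 1421867_at they were Mndal (0.981), Zbtb12 (0.979) and a probe set annotated with a microRNA symbol, and for Pgr 1439527_at 2810039B14Rik, Dnajb2 and Tbck (0.989, 0.987 and 0.985). With 6 arrays and so many candidates, values near 1 turn up for any probe set.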

How the data were processed

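Biotin-labelled cRNA from total RNA of testes was hybridised to Affymetrix arrays, 1 per sample, per the labels' protocols. The authors deposited log2 values, 1 per probe set and array. Per the submitters' processing notes they used RMA, from the affy package, with no version named there. RMA brings all arrays to a shared distribution, so a shift of most transcripts in 1 direction cannot be seen. The values ran from 2.58 to 14.84 with 0 missing. The array median was 6.26 in SCARKO-jsd 2 and from 6.40 to 6.41 in the rest. The platform annotation at GEO, possibly dated, named 1 gene for 34945 of 45037 probe sets, more than 1 for 932, and no gene for 9160. The 64 control probe sets were left out of all tests. The 5 receptor genes matched RefSeq by gene ID, used only for chromosomes.

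Every probe set was tested, without a filter on dim values, with limma 3.58.1 (lmFit, eBayes) in R 4.3.3, genotype as the only term, two-sided, Benjamini-Hochberg over all 45037. Intervals are 95% and not adjusted. Probe sets of 1 gene were compared by the same fit on per-array differences. For lists, the brightest probe set of each gene was used. The named genes are all 14 receptor probe sets, the 3 genes of smallest p in each list, and the 3 probe sets most like each receptor. The members and lists were chosen with earlier results of these data known. The fits were tested on simulated data. The labels do not tie arrays to mice, so the spread behind each p-value may be technical, and 3 arrays per group limit the precision. No arrays held identical values. Same-numbered arrays were not taken as pairs. The alternatives were filters on the lowest 40% and 60%, the brightest or the mean probe set per gene, median centring, quantile normalization, trend and robust eBayes, array weights, a replicate block and each array left out. The gene targeted by the knockout is not reported here. Plots used Python 3.11.15 and matplotlib 3.10.9.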

Additional observations from a re-analysis of the deposited data

How the results depend on the processing

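The count of steroid receptor probe sets called was 0 under all 15 alternatives, and that of probe sets differing from the others of their gene was 0 under the 13 that could be run for it. The count over the whole table, 126, was 390 with the brightest probe set per gene and the lowest 40% of genes left out, 346 with the mean of probe sets, 63 with median centring, 215 with trend and robust eBayes, 1269 with array weights, 0 with a replicate block, and 0 to 627 with 1 array left out (627 without SCARKO-jsd 2). The cause was not tested. The replicate block changed no receptor's call, and deviations of same-numbered arrays correlated at -0.27, 0.24 and 0.35, with arrays 1 and 2 of SCARKO-jsd closer to another number. Of the 106 pathway genes, 2 were called with the mean of probe sets (Ncoa2, Greb1), where 1.9% of all genes were. With array weights 3 were called (Paqr6, Ncoa2, Nr0b1), where 1269 of 45037 probe sets were. With 1 array left out 0 to 1 were called, where 0 to 627 of 45037 probe sets were. Some differences turned sign, none of them called, and most of these were near 0 at the outset. Hspa4 (0.35), Nedd4l (0.23) and Esr1 1460591_at (0.19) were not. These turned sign only where the probe sets of the gene were averaged, which is a different quantity from the named probe set. With the mean of probe sets Esr1 was at -0.0044, Nr3c1 at -0.069, Hspa4 at -0.021 and Nedd4l at -0.025. With median centring Esr1 1435663_at and Nr3c1 1460303_at were at 0.037 and 0.038, and with array weights Esr1 1435663_at was at 0.16. Set against the gene's other probe sets, Esr1 1435663_at was at 0.078 and Nr3c1 1460303_at at -0.094 with array weights, and Nr3c1 1421867_at and 1460303_at were at -0.19 and -0.20 without the lowest 60%. With 1 array left out, Esr1 1435663_at ranged from -0.13 to 0.21, Nr3c1 1421867_at from -0.038 to 0.037, Nr3c1 1460303_at from -0.13 to 0.12 and Pgr 1439527_at from -0.12 to 0.011. Against the gene's others the ranges were -0.072 to 0.092 for Esr1 1435663_at, -0.016 to 0.15 for Nr3c1 1421867_at, -0.096 to 0.17 for Nr3c1 1460303_at and -0.11 to 0.026 for Pgr 1455772_at. Medians of the lists moved with the filters and probe set summaries. With the lowest 60% left out the steroid ligand genes were at 0.20, against 0.04. With the mean of probe sets the chaperones were at -0.0044, against 0.11, and the corepressors at -0.24, against -0.18. The related receptors were at -0.013 without SCARKO-jsd 2. Esr2 and Pgr lie below the dim limit, where signal over background limits what a difference can show.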
